A study of Mus musculus with 6 samples.

Results

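The interleukin and interleukin receptor genes were every gene of the deposited value table whose symbol is Il followed by a digit, apart from Il2rg, Il2rb, Il15ra and Il21r, which belong to the IL-15 and common gamma chain system. The rule uses names alone and gave 28 of the 518 genes of the table. Of these, 10 encode secreted ligands and 18 encode receptor chains, accessory chains or soluble binding proteins. Their transcripts were counted in mouse natural killer (NK) cells, innate lymphocytes with cytotoxic granules and a large cytokine output, on the NanoString nCounter platform, in which colour-coded probes bound to RNA are counted one by one with no amplification step.

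All NK cells came from C57BL/6 mice, with the sex entered as female, and were grown over 12 days with IL-15 joined to its receptor alpha chain, at 10 ng/mL. The 2 libraries of the first group had that cytokine alone. The 2 untreated feeder libraries also had AgN2a-4P cells irradiated at 100 Gy, a mouse neuroblastoma line engineered to carry co-stimulatory ligands. The 2 anti-TIM-3 libraries had cytokine, feeder cells and then an antibody against TIM-3, an inhibitory receptor, for 4 h. The protocol names an isotype control antibody but the labels of the control libraries give no treatment, so an effect of the incubation itself and one of the antibody cannot be told apart. The cells were purified again by magnetic separation before RNA extraction. Since the culture held added IL-15, every group is a cytokine-activated state, and no resting NK cells were measured. Libraries carry the replicate numbers of their titles, which are 1 and 3 for IL-15 alone, 2 and 3 for untreated feeder, and 1 and 2 for anti-TIM-3. Whether libraries of a group stem from different animals is not stated, and the p-values therefore reflect a spread between samples that may be technical.

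Interleukins act through receptors built of several chains, in which 1 chain binds the ligand and another is often shared with other cytokines. IL-12 and IL-18, made mainly by macrophages and dendritic cells, act on NK cells through such receptors and together are known for inducing interferon gamma. Receptors of the IL-12, IL-2 and IL-10 families signal through Janus kinases (JAK) and STAT transcription factors, whereas those of the IL-1 and IL-18 family signal through the adaptor MyD88 and the IRAK kinases. NK cells are chiefly responders to these cytokines and make few interleukins themselves.

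The recovered counts of the gene probes totalled between 299485 and 441185 per library, the lowest in anti-TIM-3 replicate 2. The summed normalised count of the 8 NK cell markers was 10424 to 61075. Not every marker was abundant, with 22 to 108 recovered counts for Itga2 and 81 to 221 for Tbx21. The defining T cell gene Cd3d had 24 to 192 recovered counts, and the B cell genes Ms4a1 and Cd22 had 3 to 16, near the negative controls. The remaining B cell marker, Tnfrsf13c, had 13 to 26, above the highest negative control of each library. Marker levels moved with the groups. The NK list summed to 10424 and 17870 with IL-15 alone, to 17953 and 21113 with untreated feeder cells, and to 41968 and 61075 after anti-TIM-3. Within that list Eomes went the other way, at 2256 and 2254, 1596 and 2004, and 1073 and 1106. The 3 T cell markers summed to 88.5 and 157, 304 and 324, and 165 and 180 in the same order. Cd3d had 190 and 188 normalised counts with untreated feeder cells and 67.6 and 41.7 after anti-TIM-3. That was a fall (-1.83 ± 0.54 on the log2 scale, limma adjusted p = 0.0396), next to 7.21% falls among all probes, while Cd27 and Cd28 did not pass. The 7 myeloid markers summed to between 163 and 234, 223 and 324, and 344 and 422, with Csf1r, the macrophage growth factor receptor gene, at 5 to 12 counts. In normalised counts Itgam, Itgax and Cd68 were higher in both anti-TIM-3 libraries than in the 4 others. Those counts were 112 and 125, 52.9 and 88.6, and 123 and 111, against at most 58.1, 26.0 and 70.4. On this scale 60.2% of all probes had both anti-TIM-3 libraries above both untreated feeder libraries. In recovered counts Cd68 overlapped, at 109 and 64 against 48 to 69. Scaled by the trimmed mean of M values, 0 of the 5 tested myeloid markers rose and 1 fell against untreated feeder. Tlr4 was lower in the anti-TIM-3 libraries, at 24.8 and 48.6 normalised counts against 62.9 or more, and Cd14, Fcgr1 and Csf1r overlapped. The 4 markers of other innate lymphoid cells summed to 898 to 1151 outside the anti-TIM-3 libraries and to 1772 and 1927 in them. Of these, Icos was lower in them, with normalised counts of 255 and 186 against 444 to 727, while Rora, Gata3 and Kit were higher. The ranges over the groups were 30.7 to 64.2 for the 3 B cell markers and 430 to 1343 for the 5 mast cell and basophil markers. Of the latter, the granule protease genes Cma1 and Ctsg had 49 to 891 recovered counts outside the anti-TIM-3 libraries and 1 to 16 in them. Kit, the stem cell factor receptor gene, which is also among the innate lymphoid markers, went the other way, with 86 to 178 recovered counts outside them and 340 and 247 in them. The 2 genes listed for the feeder line, Icam1 and Cd86, summed to 90.1 to 183 outside the anti-TIM-3 libraries and to 503 and 1064 in them, nearly all of it Icam1, which lymphocytes also express. The part of these markers in the results below was not tested. In bulk RNA, fewer cells of a type and less RNA per cell cannot be told apart.

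Background was set by 8 negative control probes, which match no transcript. The highest of them had 6 to 12 counts, depending on the library. Of the 28 genes, 23 lay above the highest negative control in both libraries of at least 1 group and 15 did so in all 6 libraries, against 93.2% and 77.6% of the 518 genes. By class, 4 of 10 ligand genes were above it in all 6 libraries, against 11 of 18 receptor or accessory genes. In both libraries of at least 1 group the order was the opposite, with 9 of 10 ligand genes and 14 of 18 receptor or accessory genes. Both libraries were above it for 19 genes with IL-15 alone, for 18 in the untreated feeder group and for 18 in the anti-TIM-3 group. The matching shares of all 518 genes were not counted by group, and the cutoff differed by library, so the groups are not compared. Gene and control probes had been scaled separately in the deposited values, so this comparison rests on counts. On the deposited scale, 1 count was worth 0.731 to 1.74 units for a gene and 0.967 to 1.37 for a control. There 27 genes would have passed, and the share of all genes was not counted.

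**Figure D1:**
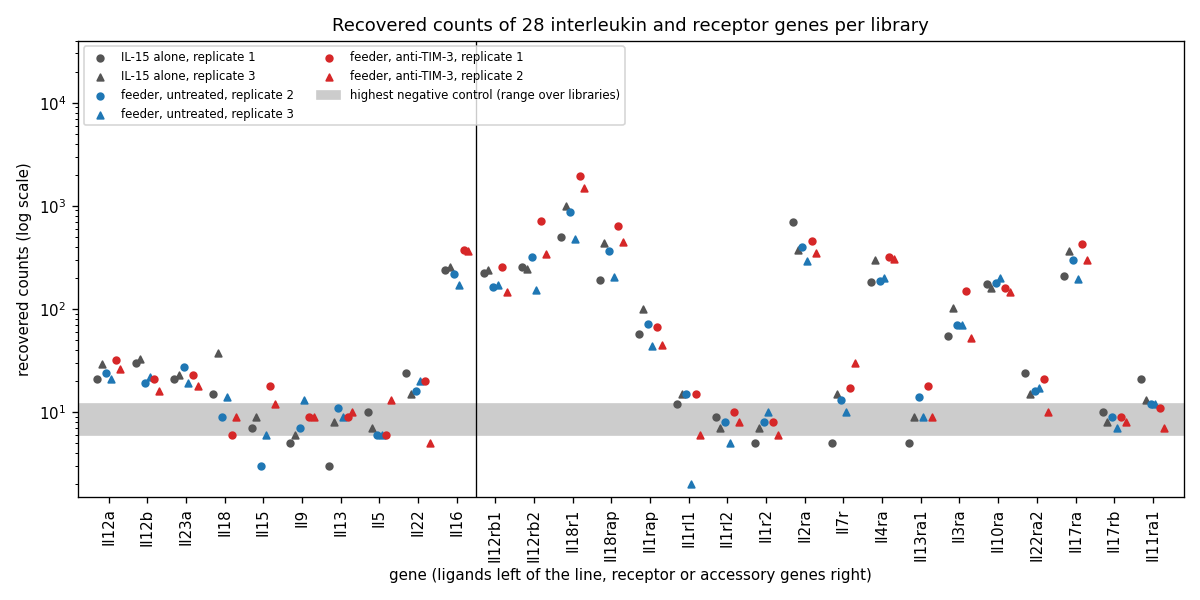
Recovered counts (log axis) of the 28 genes in each of the 6 libraries, with ligands left of the vertical line and receptor or accessory genes right of it. Colours give the group and symbols the library, and the grey band spans the highest negative control of the libraries, 6 to 12 counts. Il16 was the ligand gene with at least 170 counts in every library, while the other 9 ligand genes had at most 37.

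By log2 difference from untreated feeder, Il18r1, Il12rb2 and Il18rap led the 16 genes with enough counts to test. Il18r1 and Il18rap encode IL-18 receptor chains and Il12rb2 an IL-12 receptor chain, for cytokines that prime NK cells for interferon gamma. In each, both anti-TIM-3 libraries were above both untreated feeder libraries, as in 60.2% of all probes. Il16, Il4ra and Il17ra rose as well. The difference of Il16 (1.27 ± 0.25) was close to that of Il18rap (1.31 ± 0.37). Against untreated feeder that made 6 of 16 genes, next to 31.4% rises among all 430 probes. The other IL-12 receptor chain gene, Il12rb1, did not pass. On other scales of the libraries only Il18r1 and Il16, or none of these genes, passed. Between untreated feeder cells and IL-15 alone no gene of the set passed the test. Differences were tested with limma on the deposited log2 values over the 430 probes that reached 20 recovered counts in 2 or more libraries. They are given as log2 differences ± the standard error of the fit, with p-values adjusted by Benjamini-Hochberg and n = 2 libraries per group.

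Il18r1 encodes the IL-18 binding chain. Its normalised count (2 to the power of the deposited log2 value) was 416 and 731 with IL-15 alone, 870 and 592 with untreated feeder cells, and 2171 and 2584 after anti-TIM-3. Both anti-TIM-3 libraries thus lay far above the others, while the first 2 groups overlapped. The difference of anti-TIM-3 from untreated feeder was 1.72 ± 0.33 on the log2 scale, a 3.30-fold rise (limma adjusted p = 0.0128). Il18rap encodes the signalling partner chain, without which IL-18 does not signal. It had 158 and 317, then 357 and 250, then 716 and 766 normalised counts in the same order of groups. The pattern was that of Il18r1, with 1.31 ± 0.37 on the log2 scale (limma adjusted p = 0.0346). The normalised counts of both genes were lower in IL-15 replicate 1 than in IL-15 replicate 3.

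Il12rb2 encodes the IL-12 receptor beta 2 chain, which carries the STAT4 docking site and limits the response to IL-12. Its normalised counts were 211 and 178 with IL-15 alone, 318 and 188 with untreated feeder cells, and 801 and 587 after anti-TIM-3. It rose by 1.49 ± 0.31 on the log2 scale, or 2.81-fold, against untreated feeder (limma adjusted p = 0.0159). The partner chain gene Il12rb1, shared with the IL-23 receptor, had 184 and 173, then 160 and 213, then 286 and 254 normalised counts. Both anti-TIM-3 libraries lay above the other 4, which overlapped, but the difference of 0.54 ± 0.22 from untreated feeder did not pass (limma adjusted p = 0.104). Whether the beta 2 chain gene differed from the beta 1 chain gene in its change was not tested.

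Promoter windows from RefSeq are shown for the 3 receptor genes that lead the rises, as the sequence around the start of genes that moved together. Of the 28 genes, 22 had such a window, from 250 bases before to 50 bases after an annotated start on GRCm38.p6. The window of Il18r1, the most upstream of 3, is chr1:40465302-40465601 on the plus strand, that of Il18rap is chr1:40515112-40515411 on the plus strand, and that of Il12rb2 is chr6:67376139-67376438 on the minus strand. Capitals mark matches, on either strand, to the AP-1 motif TGANTCA, the STAT motif TTCNNNGAA, the T-box motif AGGTGTGA or the NF-kB consensus.
Il18r1: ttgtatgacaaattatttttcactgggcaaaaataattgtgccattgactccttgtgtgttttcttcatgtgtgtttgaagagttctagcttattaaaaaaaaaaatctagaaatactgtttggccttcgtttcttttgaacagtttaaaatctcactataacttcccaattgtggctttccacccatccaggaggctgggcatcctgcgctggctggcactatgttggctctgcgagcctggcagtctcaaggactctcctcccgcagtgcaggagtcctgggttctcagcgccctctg
Il18rap: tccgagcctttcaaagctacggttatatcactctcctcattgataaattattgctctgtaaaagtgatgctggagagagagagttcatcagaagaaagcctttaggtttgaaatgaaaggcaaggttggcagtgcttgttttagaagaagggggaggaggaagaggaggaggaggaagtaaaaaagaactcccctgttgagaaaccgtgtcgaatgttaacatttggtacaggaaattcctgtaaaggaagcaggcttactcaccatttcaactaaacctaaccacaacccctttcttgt
Il12rb2: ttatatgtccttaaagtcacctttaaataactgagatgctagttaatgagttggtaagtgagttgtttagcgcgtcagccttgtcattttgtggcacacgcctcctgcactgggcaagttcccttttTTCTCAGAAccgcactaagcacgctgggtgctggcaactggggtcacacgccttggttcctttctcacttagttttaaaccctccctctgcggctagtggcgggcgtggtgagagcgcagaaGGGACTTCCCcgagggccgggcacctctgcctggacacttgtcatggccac
Il12rb2 held 1 STAT motif match, starting 123 bases before the start, and 1 NF-kB consensus match that begins at the base before the start. The windows of Il18r1 and Il18rap held no match to the 4 motifs. Of 32851 such windows of all genes, 8.30% held the STAT motif, 8.46% the NF-kB consensus, 7.81% the AP-1 motif and 1.28% the T-box motif. A match of letters describes the window and says nothing of binding.

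Il18r1 and Il18rap are consecutive protein-coding genes on chromosome 1, preceded by Il1rl2 and Il1rl1, which encode the receptors for IL-36 and IL-33. In contrast to the IL-18 receptor pair, these neighbours stayed near background: Il1rl2 had 5 to 10 recovered counts and Il1rl1 had 2 to 15. Il1rap encodes the accessory chain that the IL-1, IL-33 and IL-36 receptors share. It was above background throughout, with 47.6 and 73.1, then 71.3 and 54.4, then 75.5 and 78.1 normalised counts, and did not pass (0.30 ± 0.34, limma adjusted p = 0.504). Il1r2, a decoy receptor for IL-1, had 5 to 10 recovered counts.

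Il4ra, the binding chain for IL-4 that IL-13 also uses, had 153 and 216, then 186 and 245, then 357 and 530 normalised counts in the 3 groups. It rose by 1.03 ± 0.30 on the log2 scale (limma adjusted p = 0.0396), with both anti-TIM-3 libraries above the other 4. Il13ra1, which pairs with it to bind IL-13, had 5 to 18 recovered counts and was above the highest negative control in 2 libraries. Il17ra, the chain common to the IL-17 receptors, had 175 and 268, then 292 and 241, then 484 and 516 normalised counts. It rose by 0.91 ± 0.26 (limma adjusted p = 0.0369), again with no overlap. Il17rb, the IL-25 binding chain, had 7 to 10 recovered counts.

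Il2ra encodes CD25, the chain that gives the IL-2 receptor its high affinity. It had 575 and 272 normalised counts with IL-15 alone, 394 and 358 with untreated feeder cells, and 515 and 599 after anti-TIM-3. The spread within the IL-15 group was as wide as the differences between groups, and the anti-TIM-3 difference of 0.56 ± 0.36 on the log2 scale (95% interval -0.31 to 1.43) did not pass. Il3ra, the IL-3 binding chain, had 45.1 and 75.3, then 69.3 and 86.5, then 168 and 90.3 normalised counts. Its anti-TIM-3 mean rested on replicate 1, and 0.67 ± 0.42 did not pass. Il10ra, the IL-10 binding chain, had 146 and 117, then 175 and 245, then 178 and 252 normalised counts. The 2 feeder groups overlapped, with a difference of 0.03 ± 0.29 whose 95% interval ran from -0.66 to 0.73.

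Il22ra2 encodes a soluble protein that binds and neutralises IL-22, and it passed the count filter narrowly, with 10 to 24 recovered counts. Its normalised counts of 20.03 and 10.97, 15.8 and 21.0, and 23.7 and 17.4 overlapped in all groups. Il7r, the IL-7 binding chain that marks several innate lymphoid cell types, was not tested. It had 5 and 15 recovered counts with IL-15 alone, 13 and 10 with untreated feeder cells, and 17 and 30 with anti-TIM-3. Il11ra1, the IL-11 binding chain, had 7 to 21 recovered counts, the highest in IL-15 replicate 1.

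**Figure D2:**
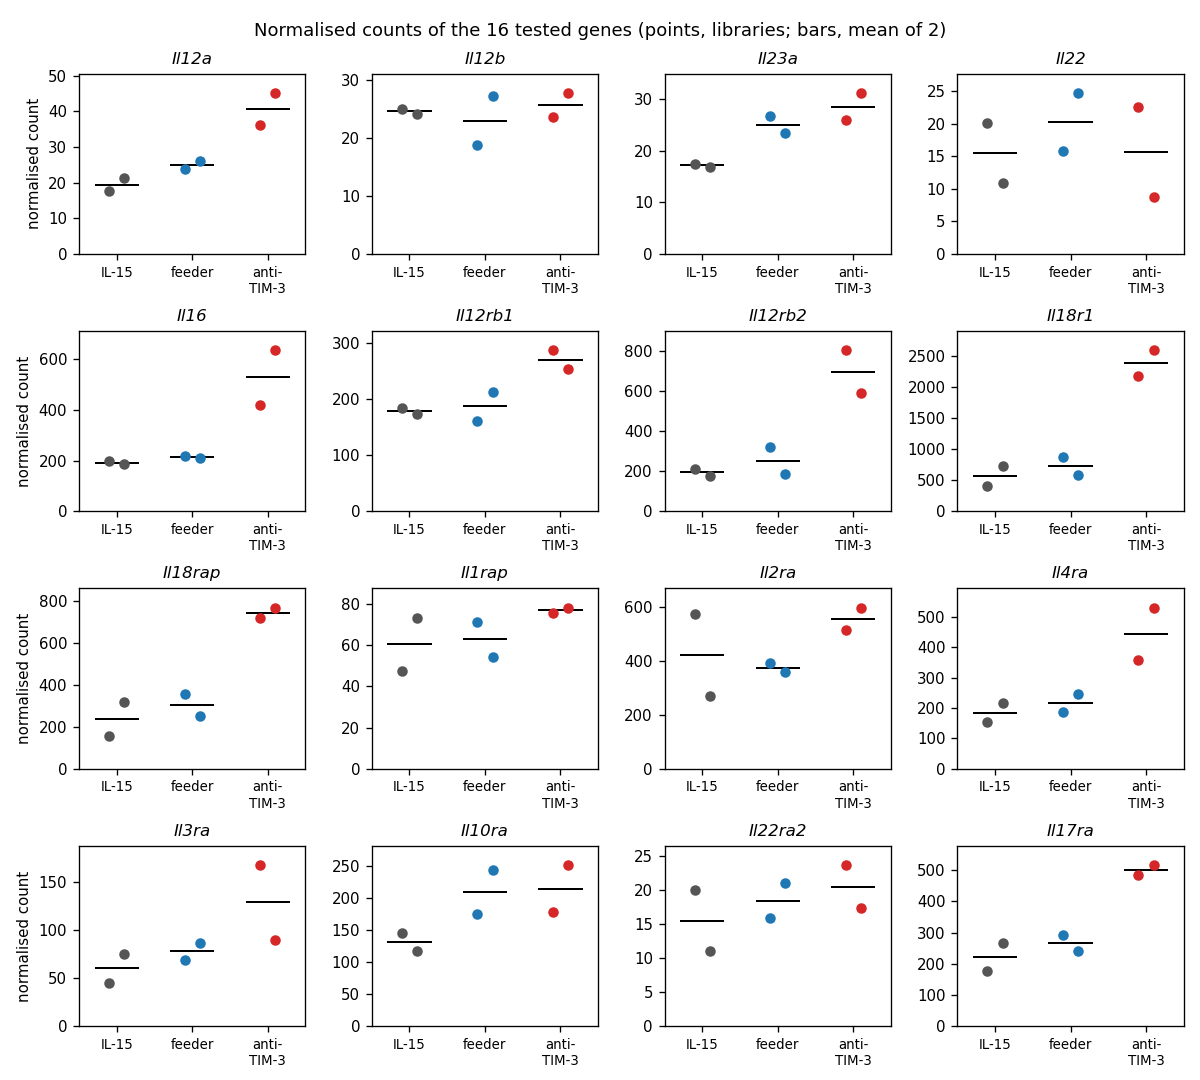
Normalised counts (linear axes from 0) of the 16 tested genes in the 3 groups, with a point per library and a bar at the mean of 2. Il18r1, Il18rap, Il12rb2, Il16, Il4ra and Il17ra, which rose, have both anti-TIM-3 points above the other 4. So do Il12a, Il12rb1, Il1rap and Il3ra, which did not pass against untreated feeder. The share of all probes with both anti-TIM-3 libraries above the other 4 was not counted. By the looser rule of being above both untreated feeder libraries alone, it was 60.2%. Il22ra2, Il12b and Il22 have groups that overlap throughout.

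Among the ligands Il16 stood out. IL-16 is made as a precursor by lymphocytes and, once cleaved and secreted, attracts cells that carry CD4. Its gene had 198 and 188 normalised counts with IL-15 alone, 218 and 210 with untreated feeder cells, and 421 and 635 after anti-TIM-3. The 4 libraries without antibody lay within a narrow band, and the anti-TIM-3 difference was 1.27 ± 0.25 on the log2 scale (limma adjusted p = 0.0133), a 2.42-fold rise.

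The subunit genes of the IL-12 family were dim. Il12a, the p35 subunit of IL-12, had 17.5 and 21.2, then 23.8 and 26.0, then 36.0 and 45.1 normalised counts, from 21 to 32 recovered counts. The groups did not overlap in normalised counts, but its recovered counts of 21 and 29, 24 and 21, and 32 and 26 did. The difference of 0.70 ± 0.35 from untreated feeder did not pass (limma adjusted p = 0.163). That of 1.06 ± 0.35 from IL-15 alone passed (limma adjusted p = 0.0462). Scaled by the trimmed mean of M values, the difference from IL-15 alone was 0.37 ± 0.34 and did not pass (limma adjusted p = 0.448). Il12b, the p40 subunit shared by IL-12 and IL-23, had 16 to 33 recovered counts. Its normalised counts of 25.0 and 24.1, 18.8 and 27.2, and 23.7 and 27.8 overlapped in all groups. Il23a, the p19 subunit of IL-23, had 17.5 and 16.8, then 26.7 and 23.5, then 25.9 and 31.3 normalised counts. Both feeder groups were above IL-15 alone in it, with 0.55 ± 0.36 for untreated feeder and 0.73 ± 0.36 for anti-TIM-3, neither of which passed.

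Il22, encoding a cytokine that acts on epithelial cells, had 24 and 15 recovered counts with IL-15 alone, 16 and 20 with untreated feeder cells, and 20 and 5 with anti-TIM-3. The anti-TIM-3 libraries differed widely from each other, replicate 2 being the lowest of the 6, and the difference of -0.50 ± 0.63 was smaller than its error. Il18, the ligand of the receptor whose chains rose, was not tested, at 15 and 37 recovered counts with IL-15 alone, 9 and 14 with untreated feeder cells, and 6 and 9 with anti-TIM-3. It was not above the highest negative control in both anti-TIM-3 libraries. The type 2 cytokine genes Il5 and Il13 had 6 to 13 and 3 to 11 recovered counts, and Il9, a growth factor gene for mast cells, had 5 to 13. Il5 was above the highest negative control in 1 library, and Il9 and Il13 in 3 each.

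Il15, the gene of the cytokine supplied in the culture, had 7 and 9 recovered counts with IL-15 alone, 3 and 6 with untreated feeder cells, and 18 and 12 with anti-TIM-3. Both anti-TIM-3 libraries were above their highest negative controls of 7 and 9 counts, and none of the 4 others was above its own. The added conjugate is protein and is not seen by the probe. The gene was left out by the count filter, and without that filter its difference from untreated feeder was 2.13 ± 0.53 on the log2 scale (limma adjusted p = 0.0253). The authors' deposited table gave it a log2 fold change of 2.0 and a q-value of 0.0038, and such a value set against 3 and 6 counts is poorly determined.

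Counted over the set, 16 of 28 genes passed the count filter. Of these, 6 rose and 0 fell against untreated feeder, next to 31.4% rises and 7.21% falls among all 430 probes. The share of rises in the set was 37.5%, near that of all probes, and the median log2 difference was 0.62 against 0.47 over all probes. By class, 5 of 11 receptor or accessory genes rose and 1 of 5 ligand genes did. Scaled by total count or by median of ratios, 1 of 11 and 1 of 5 rose, next to 14.4% and 12.1% of all probes. The 6 genes had at least 152 recovered counts in every library, so the filter did not select them for being high in 1 group. Both anti-TIM-3 libraries were above both untreated feeder libraries in 11 of 16 genes, against 60.2% of all probes. Above the median of all probes the differences were 1.26 for Il18r1, 1.02 for Il12rb2, 0.84 for Il18rap, 0.81 for Il16, 0.56 for Il4ra and 0.45 for Il17ra.

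The calls depended on the scale and on single libraries. The deposited values were scaled to 20 housekeeping genes. Scaling by the trimmed mean of M values (TMM), by median of ratios or by total count left Il18r1 and Il16 past the threshold, with total count differences of 1.46 and 1.01 on the log2 scale, next to 12.3%, 12.1% and 14.4% rises among all probes. With scaling by positive controls no gene of the set passed, Il18r1 coming closest (1.21, limma adjusted p = 0.0626), and 7.44% of probes rose. On these 4 scales all 6 differences stayed positive, the smallest being those of Il17ra (0.39 to 0.65), Il4ra (0.50 to 0.77), Il16 (0.75 to 1.01) and Il18rap (0.79 to 1.05). None of the 6 passed without untreated feeder replicate 3 (limma adjusted p of 0.0899 to 0.169), a fit in which 0 of all 430 probes passed. When replicate 2 of anti-TIM-3 was left out, Il12rb2 alone passed (limma adjusted p = 0.0470), and when replicate 2 of untreated feeder was left out, Il12rb2 and Il18r1 did, with 32 and 47 rises among all probes in these fits. Leaving out replicate 1 of anti-TIM-3 ended the calls on Il17ra and Il18rap (limma adjusted p = 0.0717 for both).

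**Figure D3:**
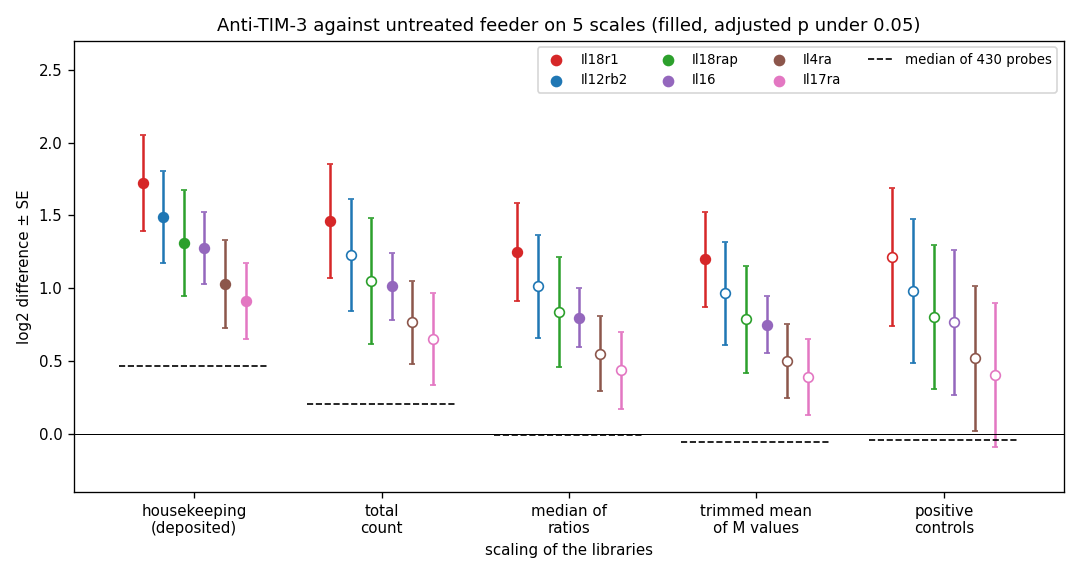
Log2 difference between anti-TIM-3 and untreated feeder (± SE of the fit) of the 6 genes that rose on the deposited scale, on 5 scalings of the libraries. Filled points have a limma adjusted p under 0.05, and dashed lines mark the median of all 430 probes, 0.47 on the housekeeping scale and -0.06 with TMM. Rescaling a library shifts all its genes alike, so the order of the genes is fixed, while the number of filled points falls from 6 to 2 or 0.

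The authors' deposited table compares groups named only by number. Its log2 fold changes differed from anti-TIM-3 minus untreated feeder by a median of 0.0064 over 498 genes, and by at most 0.21. Of the 28 genes, 7 had a q-value under 0.05 in the authors' deposited table, all higher, next to 28.3% of all its genes. These were the 6 above and Il15, with q-values of 0.011 for Il18r1, 0.0038 for Il16 and 0.028 for Il12rb2 in the authors' deposited table.

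The comparison of untreated feeder with IL-15 alone asks what feeder cells changed. No gene of the set passed, with 0 rises and 0 falls of 16 (limma adjusted p of 0.584 or more), and 0.0% of all probes passed in either direction, with 39 of 430 probes but none of the set at an unadjusted p under 0.05. The median log2 difference was 0.32 in the set and 0.19 over all probes. Il10ra had the largest difference, 0.66 ± 0.29, with its feeder libraries above both IL-15 libraries. The intervals were wide, and for Il18r1 the 95% interval ran from -0.42 to 1.18 and for Il12rb2 from -0.43 to 1.10. Of the 16 genes, 4 had both untreated feeder libraries above both IL-15 libraries, against 34.4% of all probes.

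The third comparison, of anti-TIM-3 and feeder cells together with IL-15 alone, shares libraries with both others. Of 16 genes 7 rose and 0 fell, next to 44.0% rises and 6.98% falls of all probes, and the medians were 0.90 and 0.70. The rises were Il18r1 (2.10 ± 0.33 on the log2 scale), Il12rb2 (1.82 ± 0.31), Il18rap (1.73 ± 0.37), Il16 (1.42 ± 0.25), Il4ra (1.26 ± 0.30), Il17ra (1.21 ± 0.26) and Il12a. Il18r1 passed under every alternative run for this comparison, at 1.37 to 2.51 (limma adjusted p of 0.00166 to 0.0378). With TMM only Il16 and Il18r1 passed, next to 17.9% rises of all probes. The Il12a call ended without each library in turn, and leaving out replicate 2 of anti-TIM-3 ended those of Il4ra and Il17ra (limma adjusted p = 0.0731 and 0.0520). That of Il4ra also ended without IL-15 replicate 1 (limma adjusted p = 0.0575). Il3ra (1.08 ± 0.42), Il10ra (0.70 ± 0.29) and Il12rb1 (0.59 ± 0.22) had both anti-TIM-3 libraries above both IL-15 libraries and did not pass. In all, 12 of 16 genes were arranged so, against 67.4% of all probes.

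**Figure D4:**
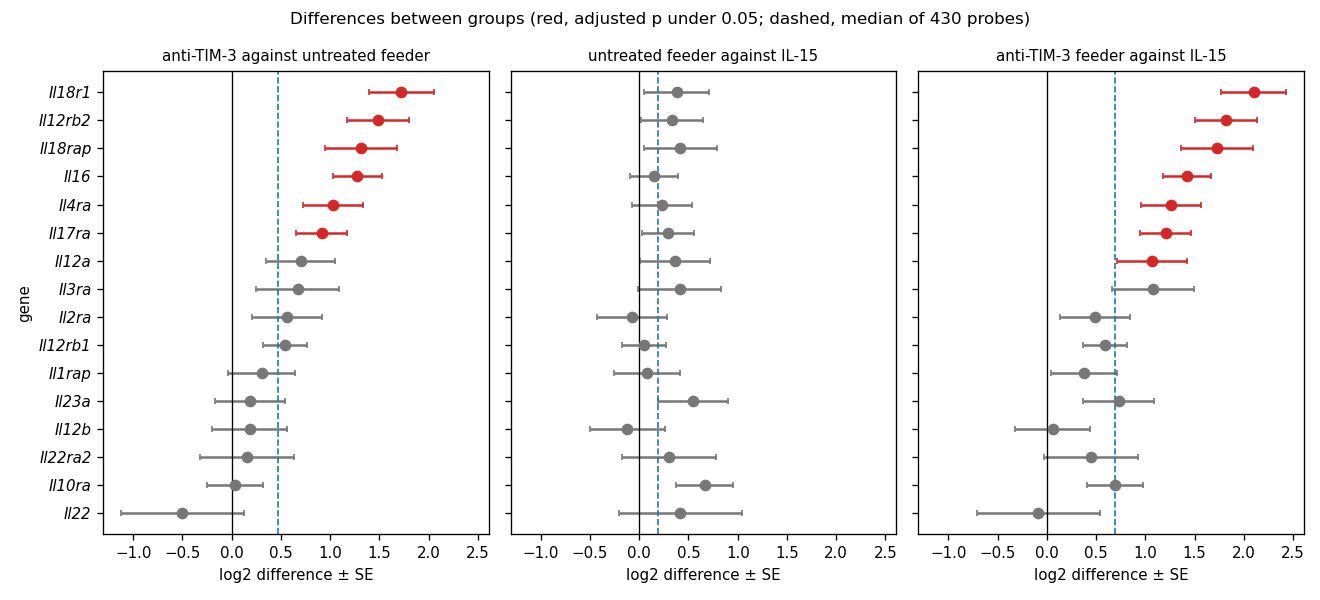
Log2 differences (± SE of the fit, n = 2 libraries per group) of the 16 tested genes in the 3 comparisons. Red points have a limma adjusted p under 0.05, and the dashed line is the median of all 430 probes. Il18r1, Il12rb2 and Il18rap lead both comparisons that involve anti-TIM-3, and no gene is red between untreated feeder and IL-15.

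Genes of the signalling apparatus below these receptors were read from a list of 26 symbols, of which 21 were in the table and 19 were tested. Against untreated feeder 7 rose and 0 fell, near the 31.4% rises of all probes, with a median log2 difference of 0.70. The rises included Jak2 (1.21 ± 0.35) and Tyk2 (0.96 ± 0.25), the kinases that bind the IL-12 receptor, and the feedback inhibitor gene Socs1 (1.95 ± 0.23). Stat4, the main transcription factor gene of IL-12 signalling, was at 1.28 ± 0.42 and did not pass (limma adjusted p = 0.0554). On the IL-18 side the kinase genes Irak4 (1.03 ± 0.22) and Irak1 (0.70 ± 0.20) rose, as did Casp1, encoding the protease that matures IL-18 (1.40 ± 0.19). The adaptor gene Myd88 was at 0.69 ± 0.32 and did not pass. Neither did Irak2 (0.87 ± 0.30), Traf6 (0.52 ± 0.23), Tollip (0.32 ± 0.17) or Sigirr (0.18 ± 0.29) of the same list. With TMM 2 of the 19 rose and 0 fell, next to 12.3% rises among all probes. Against IL-15 alone 12 of 19 rose with anti-TIM-3, Stat4 among them (1.68 ± 0.42), next to 44.0% of all probes, and between untreated feeder and IL-15 alone 0 of 19 passed.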

How the data were processed

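RNA of 6 NK cell libraries was measured with a NanoString nCounter panel, although the labels' protocols describe quantitative PCR. The log2 values deposited by the authors cover 532 probes, which are 498 endogenous genes, 20 housekeeping genes and 14 controls. The housekeeping genes average 9.22 in each library, so the deposited log2 values were scaled to them. The submitters' processing notes name limma without a role or version. Per gene, the authors' deposited table lists a q-value, a p-value, a score from its test and a log2 fold change. Dividing by the smallest step within each library made 100.0% of values whole to within 0.01, with different steps for genes and controls. The planned detection test had assumed a common step, so it was run on the counts. A further 18 columns and 12 rows named by instrument lane were not used, because no label ties a lane to a sample.

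Tests used the deposited log2 values without a pseudocount and limma 3.58.1 (R 4.3.3). A model of 3 groups was fitted over 6 libraries (eBayes with trend and robust options), with Benjamini-Hochberg adjustment and a threshold of 0.05. The filter kept 430 of 518 probes, those reaching 20 recovered counts in 2 or more libraries. The precision is that of 2 libraries per group. All members are named, and those that passed the filter are given with their values per library. Alternatives were 4 other scalings, other count filters (none, or 50 counts), subtraction of the mean negative control with a floor of 1 count, plain moderation, voom, fits of 2 groups, a replicate block and each library left out. Detection was set against the mean plus 2 SD of the negative controls and against 20 counts. Samples sharing a replicate number did not deviate together (correlations of deviations from the group means of 0.0801, 0.0376 and -0.415), so the block is an alternative only. Cell type markers and the signalling list were read from written lists. One gene of the signalling list is counted but not reported here by name. The members and lists were chosen with earlier results of these data known. The fit was tested on simulated data with known changes. All 28 symbols matched RefSeq genes on GRCm38.p6, used for gene order, and promoter windows came from RefSeq.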

Additional observations from a re-analysis of the deposited data

How the results depend on the processing

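With 2 libraries per group, the count of called genes depended on the scale. Against untreated feeder, 6 genes of the set passed on the deposited scale, 2 with TMM, 2 with total count, 2 with median of ratios, 0 with positive controls and 2 with voom. Between anti-TIM-3 with feeder cells and IL-15 alone, 7 passed, against 2 with TMM, 2 with total count, 2 with median of ratios, 1 with positive controls, 3 with voom and 11 of 28 without a count filter, where 39.0% of all 518 probes rose. Among all probes, in the order deposited scale, TMM, total count, median of ratios, positive controls and voom, the rises against untreated feeder numbered 135, 53, 62, 52, 32 and 45, and the falls 31, 52, 37, 43, 37 and 42. Against IL-15 alone the same order gave 189, 77, 74, 75, 47 and 79 rises, and 30, 76, 55, 77, 47 and 77 falls. With the replicate block 1 gene passed against untreated feeder, Il18r1 (1.94, limma adjusted p = 0.0473), and 2 passed against IL-15 alone, Il18r1 and Il4ra. With the block, 47 of all 430 probes rose and 14 fell against untreated feeder, and 64 rose and 12 fell against IL-15 alone. The shared replicate numbers may stand for an animal or a batch, which the labels do not say, and same-numbered libraries did not deviate together. The block leaves fewer degrees of freedom. Leaving out 1 library at a time gave 0 to 6 genes against untreated feeder, 4 to 7 for anti-TIM-3 against IL-15 alone, and 0 throughout for untreated feeder against IL-15 alone. Each such fit with 1 library in a group assumes that it varies like the other groups. Without IL-15 replicate 3, 7 of all probes passed between untreated feeder and IL-15. Without trend or robust moderation 4 genes passed against untreated feeder, with Il17ra and Il4ra lost (limma adjusted p = 0.0510 and 0.0547). No called difference changed sign: of 220 recalculated values of called differences, 133 stayed past the threshold. Of 578 recalculated values that passed in neither fit, 97 changed sign, so no direction is read from those genes. The calls gained were 3, all against IL-15 alone: Il2ra without IL-15 replicate 1, Il3ra without IL-15 replicate 3, and Il23a with plain moderation. At least 20 counts in place of the highest negative control left 14 genes detected in both libraries of a group, against 23. With the mean plus 2 SD of the negative controls it was 23, and leaving out 1 library 23 to 27. On the deposited scale, an alternative chosen after seeing the data, it was 27. For these detection alternatives the shares of all genes were not counted. Depth limits the 12 untested genes, whose counts had a median over the libraries of 6.5 to 14. Without the count filter, Il15 passed against untreated feeder, and Il7r, Il13, Il13ra1 and Il15 against IL-15 alone. In no case were both libraries of the lower group above their highest negative control, so these are not measured rises.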
